A study of Mus musculus with 4 samples.

Results

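The chromatin that borders the HoxB and HoxC clusters was compared between wt mouse embryonic stem cells and cells labelled Hox-/-. A flank here is the DNA 50 kb to 1.5 Mb outside the stretch of a Hox cluster in which neither Hox-/- library had a listed peak. That stretch ran from 96190713 to 96374733 on chromosome 11 at HoxB and from 102921062 to 103041018 on chromosome 15 at HoxC (build mm10), and is called the gap. Peaks of the 4 libraries that overlapped by at least 1 bp were joined into regions, and every region that lay wholly inside a flank was taken. This gave 1027 of 208211 regions, 704 at HoxB and 323 at HoxC. The HoxB flanks held 332 regions on the side of Hoxb13 and 372 on the side of Hoxb1. The HoxC flanks held 223 regions on the side of Hoxc13 and 100 on the side of Hoxc4. On the Hoxc4 side the last listed region ended 889 kb from the gap, so that the outer end of that window was empty.

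The libraries were made by ATAC-seq, in which a transposase inserts sequencing adapters into accessible DNA. There were 2 wt and 2 Hox-/- libraries. The titles mark the mutant as BADC, and the labels used here describe neither its alleles nor the number of clones. Both genotypes grew in medium with serum, leukaemia inhibitory factor, the GSK-3 inhibitor CHIR99021 and the MEK inhibitor PD0325901. Nothing in the labels says that replicates were separate cultures, so the spread between them may be technical.

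Hox genes encode homeodomain transcription factors that give cells along the body axis their positional identity, and in pluripotent stem cells most of them are silent and covered by Polycomb proteins. The HoxB and HoxC clusters lie in gene-rich DNA with many genes that every cell uses. These 2 neighbourhoods descend from a common ancestral segment, so that related genes such as Cbx1 and Cbx5, Copz2 and Copz1, or Calcoco2 and Calcoco1 sit beside HoxB and HoxC respectively. An open promoter in ATAC-seq marks DNA that the transposase can reach, and is not by itself a measure of transcription.

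The promoters of the genes that border the gaps, and of 2 of the related gene pairs, are shown because the results on the gene pairs and on the genes next to the clusters turn on them. Each runs from 250 bases before the start of the gene to 50 after it (RefSeq, GRCm38.p6), is written 5′ to 3′ on the strand of the gene, and has 300 bases. Capitals mark GGGCGG or CCGCCC, the 2 strands of a GC box, and CCAAT or ATTGG, the 2 strands of a CCAAT box. The letters CCGGAAG and CTTCCGG, the core of many ETS factor sites, were also searched and were in none of the 7 promoters. Over the 17492 protein-coding genes of the promoter table, GGGCGG on either strand was in 46.3%, CCAAT in 39.0% and CCGGAAG in 11.9%. Skap1, the gene beside the gap on the Hoxb1 side, is named only.
Ttll6 (beside HoxB, chr11:96133536-96133835, plus strand): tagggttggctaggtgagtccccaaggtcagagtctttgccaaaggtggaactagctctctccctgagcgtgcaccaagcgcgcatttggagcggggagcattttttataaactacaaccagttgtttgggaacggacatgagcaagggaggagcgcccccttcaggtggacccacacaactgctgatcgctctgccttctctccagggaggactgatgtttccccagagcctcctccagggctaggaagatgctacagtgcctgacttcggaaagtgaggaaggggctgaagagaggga
Calcoco1 (beside HoxC, chr15:102722129-102722428, minus strand): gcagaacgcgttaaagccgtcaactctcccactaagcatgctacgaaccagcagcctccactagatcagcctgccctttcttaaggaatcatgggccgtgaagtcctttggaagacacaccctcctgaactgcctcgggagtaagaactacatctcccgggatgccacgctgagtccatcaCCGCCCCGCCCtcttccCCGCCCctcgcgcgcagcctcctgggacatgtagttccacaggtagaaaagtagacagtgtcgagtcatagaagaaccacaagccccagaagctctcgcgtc
Smug1 (beside HoxC, chr15:103163235-103163534, minus strand): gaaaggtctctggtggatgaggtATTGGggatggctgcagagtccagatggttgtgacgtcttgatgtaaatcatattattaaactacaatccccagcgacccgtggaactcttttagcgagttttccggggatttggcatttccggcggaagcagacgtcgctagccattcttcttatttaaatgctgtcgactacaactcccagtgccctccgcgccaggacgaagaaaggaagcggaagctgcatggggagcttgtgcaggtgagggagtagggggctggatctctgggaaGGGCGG
Cbx1 (HoxB flank, chr11:96788885-96789184, plus strand): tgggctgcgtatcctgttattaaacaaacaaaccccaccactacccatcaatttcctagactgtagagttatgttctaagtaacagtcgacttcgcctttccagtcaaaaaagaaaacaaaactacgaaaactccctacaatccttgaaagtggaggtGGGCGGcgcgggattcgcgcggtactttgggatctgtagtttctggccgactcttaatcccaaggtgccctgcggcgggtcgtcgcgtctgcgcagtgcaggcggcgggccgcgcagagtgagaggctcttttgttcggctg
Cbx5 (HoxC flank, chr15:103239803-103240102, minus strand): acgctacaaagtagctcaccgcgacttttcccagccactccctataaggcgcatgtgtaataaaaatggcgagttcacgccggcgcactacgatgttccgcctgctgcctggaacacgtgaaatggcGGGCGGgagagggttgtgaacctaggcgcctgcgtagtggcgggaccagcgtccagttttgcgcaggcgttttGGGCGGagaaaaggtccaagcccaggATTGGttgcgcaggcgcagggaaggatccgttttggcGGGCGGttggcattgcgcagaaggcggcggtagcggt
Copz2 (HoxB flank, chr11:96849626-96849925, plus strand): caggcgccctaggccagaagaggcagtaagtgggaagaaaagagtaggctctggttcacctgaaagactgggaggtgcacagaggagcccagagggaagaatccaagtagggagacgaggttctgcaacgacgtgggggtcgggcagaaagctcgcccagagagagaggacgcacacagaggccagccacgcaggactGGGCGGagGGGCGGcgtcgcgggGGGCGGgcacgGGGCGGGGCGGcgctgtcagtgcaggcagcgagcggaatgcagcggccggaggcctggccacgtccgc
Copz1 (HoxC flank, chr15:103272638-103272937, plus strand): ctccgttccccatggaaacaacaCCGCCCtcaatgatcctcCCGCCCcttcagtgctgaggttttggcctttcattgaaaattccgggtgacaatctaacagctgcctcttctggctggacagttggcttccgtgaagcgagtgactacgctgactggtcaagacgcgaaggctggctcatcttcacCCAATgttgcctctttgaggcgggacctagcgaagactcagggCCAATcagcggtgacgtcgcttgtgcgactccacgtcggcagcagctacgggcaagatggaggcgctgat

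The flanks remained accessible in Hox-/- cells. At HoxB, 490 of the 508 regions that both wt libraries called also had a peak in Hox-/- replicate 1 or 2 (96.5%, with an exact 95% binomial interval of 94.5% to 97.9%). At HoxC it was 244 of 252 regions, or 96.8% (93.8% to 98.6%). Over all regions of the genome the share was 94.6%. It was 94.3% on the rest of chromosome 11 and 94.2% on the rest of chromosome 15. Such intervals cover counting error alone, and adjacent regions can share their state. In the reverse direction, 455 of 469 regions called in both Hox-/- libraries at HoxB (97.0%) and 239 of 242 at HoxC (98.8%) were called in wt, beside 98.1% over the genome.

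A region is called in a library when a peak is listed there. In the HoxB flanks, wt replicates 1 and 2 called 580 and 583 regions, and Hox-/- replicates 1 and 2 called 512 and 551. In the HoxC flanks the counts were 274 and 275 in wt and 261 and 275 in Hox-/-. These are shares of 82.4% and 82.8% in wt and 72.7% and 78.3% in Hox-/- at HoxB, and of 84.8%, 85.1%, 80.8% and 85.1% at HoxC. Over all regions the shares were 80.1% and 81.3% in wt and 72.1% and 76.4% in Hox-/-, so wt stood above Hox-/- over the genome as well. The lowest count in either flank was that of Hox-/- replicate 1, which also had the shortest list. The whole lists held 213705 and 216795 peaks in wt and 191704 and 200214 in Hox-/-, with a median −log10 p of 20.0, 19.8, 15.7 and 19.0 in the same order. The lists give no read counts, so the sequencing depth is unknown, and its part in the calls was not tested. At HoxB 433 regions (61.5%) and at HoxC 228 regions (70.6%) were called in all 4 libraries, beside 59.0% of all regions.

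As a share of each list, the 2 flanks moved in opposite directions by small amounts. The HoxB flanks held 745 and 736 peaks in wt and 638 and 686 in Hox-/-, which was 0.349% and 0.339% of the wt lists and 0.333% and 0.343% of the Hox-/- lists. The genotypes overlapped. The wt mean was 0.344% ± 0.00645 and the Hox-/- mean 0.338% ± 0.00695 (SD, n = 2 each, two-sided exact permutation p = 0.67). The HoxC flanks held 364 and 368 peaks in wt and 345 and 352 in Hox-/-, or 0.170% and 0.170% against 0.180% and 0.176%. Here the genotypes did not overlap, and the means were 0.170% ± 0.000412 and 0.178% ± 0.00294 (SD, n = 2 each, exact permutation p = 0.33). With 2 libraries against 2, an exact test cannot give less than 0.33, so no difference of this kind can pass a threshold. Over the 8 such tests on the flanks, the Benjamini-Hochberg adjusted values lay between 0.67 and 1. When each list was limited to its 150000 strongest peaks, the difference turned to 0.00633 percentage points at HoxB and −0.00333 at HoxC, so neither direction is stable. With −log10 q of at least 5 and with flanks that end at 0.5 Mb, HoxB also turned, to 0.0152 and 0.000456. HoxC kept its sign there, at 0.00502 and 0.00753.

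**Figure D1:**
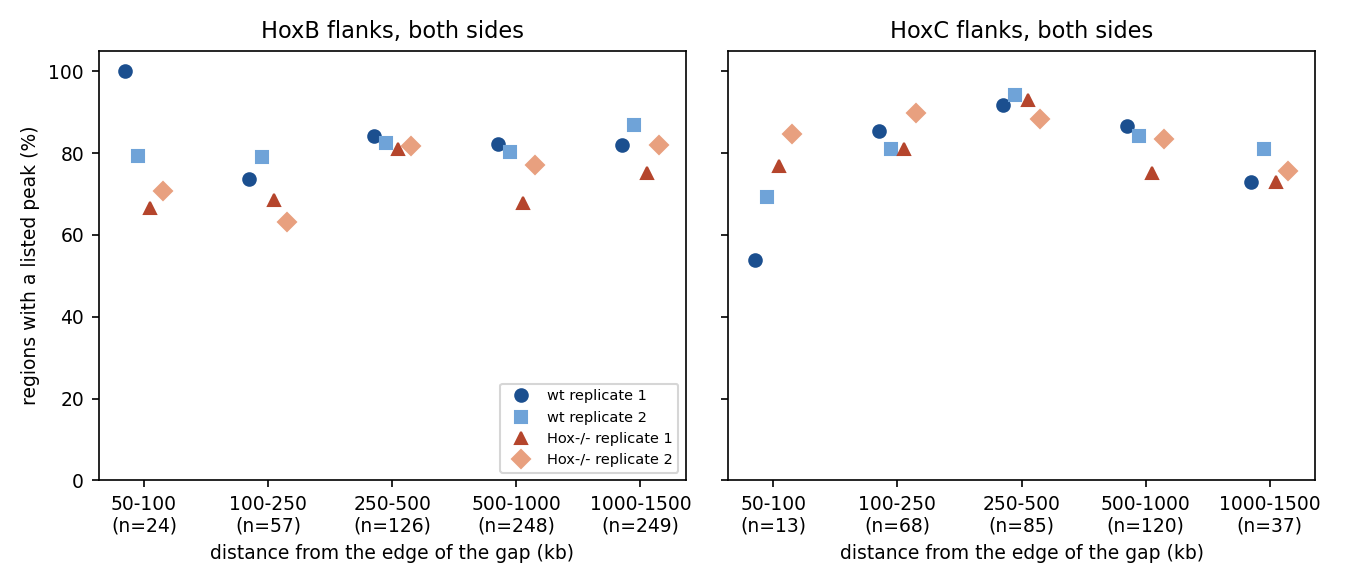
Share of flank regions with a listed peak (percent, vertical axis) in each of the 4 libraries, by distance from the edge of the gap (kb, horizontal axis, n regions per bin), for HoxB (left) and HoxC (right). At 50 to 100 kb the shares ran from 66.7% to 100% over 24 regions at HoxB and from 53.8% to 84.6% over 13 regions at HoxC, with the genotypes in opposite order.

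Regions were kept at every distance from the gap. At HoxB, 18 of 19 wt regions at 50 to 100 kb were called in a Hox-/- library, 32 of 33 at 100 to 250 kb and 93 of 94 at 250 to 500 kb. Farther out, the counts were 168 of 175 at 500 to 1000 kb and 179 of 187 at 1000 to 1500 kb. At HoxC every one of the 6 regions at 50 to 100 kb and of the 53 at 100 to 250 kb was kept, and 74 of 75 at 250 to 500 kb. The lowest HoxC share was at 500 to 1000 kb, with 85 of 92 regions (92.4%, exact 95% binomial interval 84.9% to 96.9%), and 26 of 26 were kept beyond 1000 kb. The intervals of these bins overlap.

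The nearest regions differed between libraries in opposite ways at the 2 clusters. Of the 24 HoxB regions 50 to 100 kb from the gap, wt replicates 1 and 2 called 24 and 19, and Hox-/- replicates 1 and 2 called 16 and 17. Of the 13 HoxC regions at that distance, the wt libraries called 7 and 9 and the Hox-/- libraries 10 and 11. The genotypes did not overlap in either set, and the order was wt above Hox-/- at HoxB, as over the genome, and Hox-/- above wt at HoxC. At HoxB 1 of the 24 was called in both wt and in neither Hox-/- library, and at HoxC 0 of the 13, beside 3.83% over the genome. In the reverse direction it was 0 of the 24 at HoxB and 1 of the 13 at HoxC, beside 1.23%.

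The density of regions also differed between the flanks. At HoxB it lay between 19.0 and 25.2 regions per 100 kb in every distance bin, taken over both sides. On the Hoxc4 side it was 27.3 per 100 kb at 100 to 250 kb and 17.6 at 250 to 500 kb, then 1.40 at 500 to 1000 kb. On the Hoxc13 side it was 22.6 per 100 kb at 500 to 1000 kb and 7.40 beyond 1000 kb, where most of the keratin genes lie. Regions within 1 kb of a protein-coding gene start (or of either end, for genes whose strand the promoter table does not give) were 100 of 704 at HoxB (14.2%) and 73 of 323 at HoxC (22.6%), beside 10.0% over the genome.

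The regions nearest to the gaps that all 4 libraries called were mostly weak. To compare strength between lists of different length, peaks were ranked within each library by −log10 p, with rank 1 the strongest, and a region took the rank of its strongest peak. On the Hoxb13 side the nearest such region, chr11:96139286-96139867 inside Ttll6, ranked 174396 and 212973 in wt and 173798 and 156312 in Hox-/-. On the Hoxb1 side it was chr11:96425193-96425799, between the gap and Skap1, with ranks of 131452 and 158200 in wt and 116426 and 134126 in Hox-/-. The region on the Hoxc4 side, chr15:103092534-103092812, ranked 182106 and 148556 in wt and 109823 and 170658 in Hox-/-. The ranks of the genotypes overlapped on the Hoxb1 and Hoxc4 sides, and on the Hoxb13 side both Hox-/- ranks were better. That order is set in part by list length. The Hox-/- lists held 191704 and 200214 peaks, so no Hox-/- rank could be as low as 212973. At the weak end, ranks of lists of unequal length are thus not fully comparable. The exception in strength was the Hoxc13 side, where chr15:102862422-102862892 ranked 56736.5 and 55283 in wt and 72790.5 and 64759 in Hox-/-, with both wt ranks better.

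The promoters of Calcoco1, Smug1 and Ttll6, which border the gaps, were open in every library. Calcoco1, a coactivator and autophagy receptor beside HoxC, had one of the strongest peaks of the flanks, with ranks of 493 and 715 in wt and 932 and 824 in Hox-/-. The wt ranks were both better, and the peak stayed within the strongest 1000 of each list. Smug1, a uracil DNA glycosylase of base excision repair, ranked 9623 and 9807.5 in wt and 9542.5 and 7610 in Hox-/-, with the Hox-/- ranks better by a small margin. Ttll6, a tubulin polyglutamylase, ranked 37639.5 and 40982 in wt and 41830 and 35633 in Hox-/-, and the genotypes overlapped.

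At these promoters the summits lay at nearly the same base in all libraries. The summit was 79 and 80 bases before the start of Calcoco1 in wt (−79 and −80) and at −65 and −83 in Hox-/-, inside the sequence shown, beside its 3 CCGCCC. At Smug1 it lay at −47 and −48 in wt and at −46 and −40 in Hox-/-. At Ttll6, whose promoter holds none of the marked letters, it lay at −71, −88, −83 and −76 in wt replicates 1 and 2 and Hox-/- replicates 1 and 2.

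Skap1, an adaptor protein of T cell receptor signalling, had a different picture at its 2 ends. At the end that faces HoxB (position 96464570), one region ranked 184442 and 168536 in wt and 181856 in Hox-/- replicate 1, with no peak in Hox-/- replicate 2. A second region there ranked 159095 and 209005 in wt and 172900 in Hox-/- replicate 2, with no peak in Hox-/- replicate 1. The far end of the gene (position 96759622) had a strong peak in each library, with ranks of 8908.5 and 7933 in wt and 8147 and 9627.5 in Hox-/-.

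Ranks within the flanks differed between genotypes by about as much as between replicates. The log2 rank shift of a region is its mean log2 rank in wt minus that in Hox-/-, so that a value above 0 means a stronger rank in Hox-/-. Its median was 0.03 at HoxB (quartiles −0.21 and 0.21) and 0.03 at HoxC (−0.22 and 0.27), beside 0.02 over all regions called in the 4 libraries. Between single libraries and without regard to direction, the median difference in log2 rank at HoxB was 0.27 to 0.29 over the 4 pairs of a wt and a Hox-/- library. It was 0.23 between the wt replicates and 0.28 between the Hox-/- replicates. At HoxC it was 0.28 to 0.32 between genotypes, and 0.23 and 0.29 between replicates. Over the genome the values were 0.27 to 0.29, 0.24 and 0.26. Without Hox-/- replicate 1 the HoxB median was −0.01.

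The median log2 rank of each library gives the same quantity without pairing the regions. At HoxB it was 15.86 and 15.86 in wt and 15.88 and 15.91 in Hox-/-, a difference of 0.04 towards weaker ranks in Hox-/- and thus opposite in sign to the median shift. At HoxC it was 15.97 and 15.90 in wt and 15.86 and 15.83 in Hox-/-, towards stronger ranks in Hox-/-. In each flank the genotypes did not overlap, and the exact permutation p was 0.33, the smallest that this design allows.

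**Figure D2:**
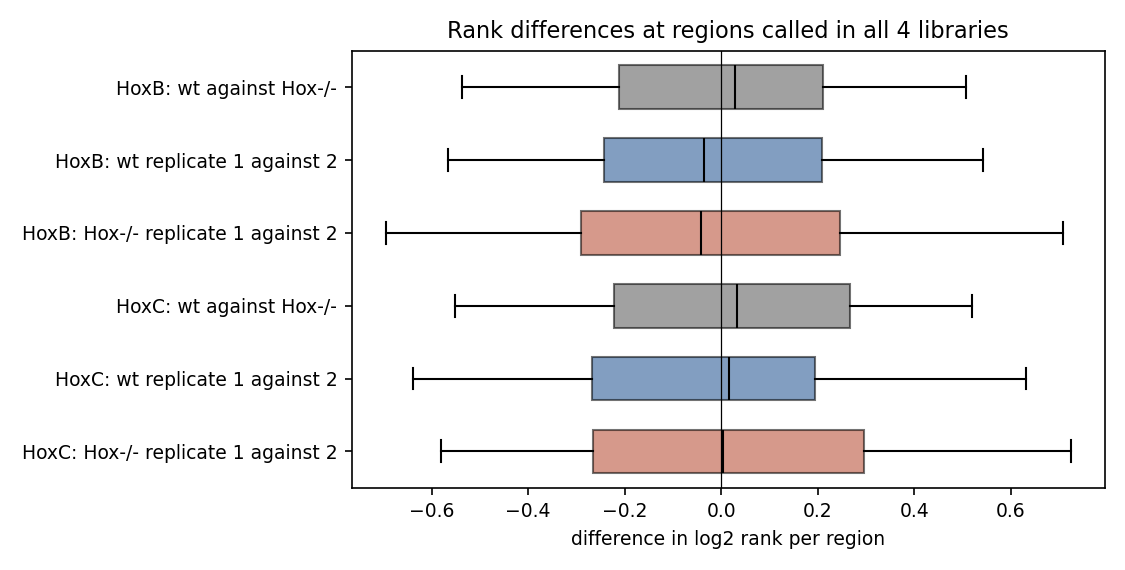
Differences in log2 rank (horizontal axis) over the flank regions called in all 4 libraries, between the genotype means (grey), the wt replicates (blue) and the Hox-/- replicates (red). Boxes are quartiles with the median as a line and whiskers run over the 5th to 95th percentiles; the grey boxes, which average the 2 libraries of a genotype where the others compare single libraries, are centred at 0.03 in both flanks and overlap the boxes of the replicates.

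The differences between the sides of a cluster overlapped between the genotypes. On the Hoxb13 side the median shift was 0.02 and on the Hoxb1 side 0.05, a difference of −0.03 that was −0.12 without Hox-/- replicate 1 and −0.11 without wt replicate 2. On the Hoxc13 side it was −0.02 and on the Hoxc4 side 0.09, a difference of −0.11 that was −0.01 without Hox-/- replicate 1 and −0.04 with ranks by fold. The test ran on 1 value per library, the median log2 rank of the group 13 side minus that of the other side. This was 0.14 and 0.11 in wt and 0.19 and 0.07 in Hox-/- at HoxB, and 0.13 and −0.10 in wt and −0.05 and −0.02 in Hox-/- at HoxC (exact permutation p = 1 for each). At HoxC the library values differ in the opposite direction to the median shifts. Regions of the Hoxb1 side with ranks that did not overlap between genotypes were 57 stronger in Hox-/- and 34 stronger in wt, of 224 called in all libraries. On the Hoxb13 side the order was the opposite, with 29 stronger in Hox-/- and 45 stronger in wt of 209. These counts stand beside 21.4% stronger in Hox-/- and 19.6% stronger in wt over the genome. On the Hoxc4 side 20 of 73 regions were stronger in Hox-/- and 7 in wt, and on the Hoxc13 side 40 and 28 of 155.

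By distance, the median shifts of the HoxB bins within 500 kb of the gap were above 0. The median shift was 0.10 at 50 to 100 kb, 0.10 at 100 to 250 kb and 0.16 at 250 to 500 kb, and then −0.02 at both 500 to 1000 kb and 1000 to 1500 kb. Regions nearer than 250 kb had a median 0.12 above those beyond 500 kb. This was 0.07 without wt replicate 1 and 0.00665 with ranks by fold. The median log2 rank of the near regions minus that of the far ones was −0.09 and −0.11 in wt and −0.05 and −0.10 in Hox-/- (exact permutation p = 0.67). By these library values the near regions ranked weaker in Hox-/-, opposite in sign to the difference of 0.12. At HoxC the medians were 0.11, −0.02, 0.02, 0.07 and −0.01 in the same bins, and the near regions had a median 0.06 below the far ones (a difference of −0.06). The library values were −0.30 and −0.24 in wt and 0.01 and −0.16 in Hox-/-, in the same direction (exact permutation p = 0.33). That HoxC difference of shifts became 0.07 without wt replicate 1 and 0.02 with near and far taken as 50 to 500 kb and 1000 to 1500 kb, so its direction is not stable.

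The bin with the highest median among those of at least 20 regions lay on the Hoxb1 side at 250 to 500 kb, and was picked after its value was seen. It spans the far part of Skap1 and the genes Cbx1, Nfe2l1 and Copz2. Its 39 regions called in all libraries had a median shift of 0.20 (quartiles −0.06 and 0.31). Without overlap, 12 regions (30.8%) were stronger in Hox-/- and 1 (2.56%) in wt, beside 21.4% and 19.6% over the genome. The replicates of wt differed in this bin by a median of 0.09 and those of Hox-/- by −0.05. The value was 0.09 without Hox-/- replicate 1, 0.10 without Hox-/- replicate 2, and 0.13 when peaks were ranked by fold.

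**Figure D3:**
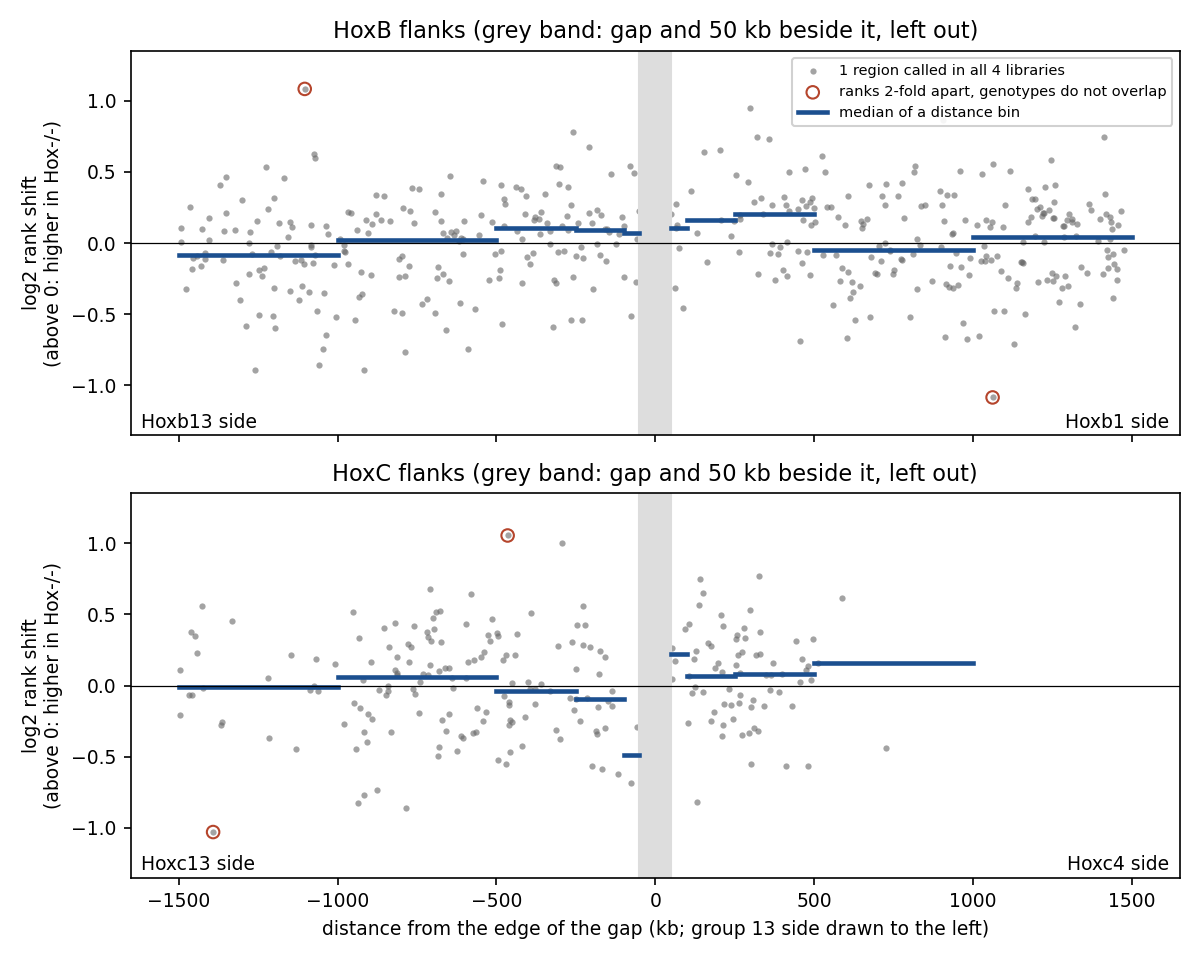
Log2 rank shift (vertical axis, above 0 means stronger in Hox-/-) of each flank region called in all 4 libraries against its distance from the edge of the gap (kb, horizontal axis, group 13 side to the left), for HoxB (top) and HoxC (bottom). Blue lines are medians of distance bins and circles mark the 4 regions with a shift of at least 2-fold whose genotypes did not overlap; the shifts scatter around 0 on both sides of both gaps.

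Large changes of rank were rare. A shift of at least 2-fold with no overlap between genotypes was found in 1 region in each direction in each flank, of 433 regions at HoxB and 228 at HoxC. Over the genome the share was 0.415% towards Hox-/- and 0.393% towards wt. A region in the weaker part of a list cannot fall 2-fold in rank, so weak regions can be counted in 1 direction only.

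The 2 regions that ranked higher in Hox-/- were both on the group 13 side. At HoxB it was chr11:95087219-95087594, an intergenic region 10505 bp from the start of Itga3, an integrin subunit. It ranked 144289 and 192024 in wt and 91523.5 and 67546.5 in Hox-/- (log2 shift 1.08). The wt replicate 2 rank lies beyond the end of the Hox-/- replicate 1 list, which held 191704 peaks. Ranked among the regions called in all libraries, the shift of this region was 0.74. At HoxC it was chr15:102455956-102456358, 2812 bp from an end of Prr13, with ranks of 34643 and 44470 in wt and 17395 and 20548 in Hox-/- (log2 shift 1.05). Both regions were picked because their ranks did not overlap between genotypes, so the distance between genotypes is no separate evidence.

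The 2 regions that ranked lower in Hox-/- were inside genes. The HoxB region, chr11:97435841-97436348 in Arhgap23, ranked 49479 and 45973 in wt and 123927 and 82518 in Hox-/- (log2 shift −1.08). The HoxC region, chr15:101529159-101529642 in the hair keratin gene Krt84, ranked 68258.5 and 66823.5 in wt and 150360 and 126233 in Hox-/- (log2 shift −1.03). The Arhgap23 region had a shift of −0.79 without Hox-/- replicate 1 and −1.38 without Hox-/- replicate 2. At the ends of Arhgap23 itself the strongest peak moved the same way, from 12510 and 13660 in wt to 23233 and 19575 in Hox-/-. Without wt replicate 2 the shift of the region near Prr13 was 0.87, and without Hox-/- replicate 1 that in Krt84 was −0.90. Ranked by fold, the shifts were 0.71 near Itga3, 0.90 near Prr13 and −0.64 in Arhgap23, below 2-fold, and −1.38 in Krt84.

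Regions called in both libraries of one genotype and neither of the other were weak. At HoxB 18 regions (2.56%) were found in wt only and 14 (1.99%) in Hox-/- only. At HoxC 8 (2.48%) were found in wt only and 3 (0.929%) in Hox-/- only. Over the genome these shares were 3.83% for wt only and 1.23% for Hox-/- only. The best rank of any wt-only region in the flanks was 88421 and that of any Hox-/- only region 97644, so 0 of them were among the 50000 strongest peaks of a library.

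The best ranked of these regions lay inside genes or between them. The wt-only region with the best ranks at HoxB was chr11:97307320-97307622, 8094 bp from the start of Mrpl45, a mitochondrial ribosomal protein gene, with ranks of 88421 and 98546. On the Hoxb13 side it was chr11:95214567-95215002, 46527 bp from Tac4, with ranks of 92935 and 93075. At HoxC it was chr15:102104199-102104534 in Tns2, a focal adhesion protein gene, at 113799 and 105960. A wt-only region closer to the gap, chr11:96127870-96128234 inside Ttll6 and 62.5 kb from the edge, ranked 162880 and 141506.

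Among Hox-/- only regions the best ranked lay in Arhgap23, at chr11:97439995-97440243, with ranks of 113200 and 97644. The region that ranked lower in Hox-/- lies in the same gene. Another, chr11:95956716-95957138, lay 25 bp from an end of Igf2bp1, an RNA-binding protein of embryonic cells, and ranked 109579 and 136669. The body of Skap1 held 2 more, at 143794 and 126233 and at 165514 and 142971. At HoxC the 3 such regions ranked between 127560 and 192672.

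The strongest regions of each flank lay at promoters or inside genes. On the Hoxb1 side they were at Cdk5rap3, a ufmylation cofactor, with ranks of 483 and 207 in wt and 282 and 249 in Hox-/-, at Nfe2l1 and inside Sp2. On the Hoxb13 side Fam117a had ranks of 967 and 1683 in wt and 731 and 1406 in Hox-/-. Tarbp2, a partner of Dicer in miRNA processing, led the Hoxc13 side with 169 and 313 in wt and 240 and 212 in Hox-/-. The ranks of the genotypes overlapped at Cdk5rap3, Fam117a and Tarbp2. The next region of the Hoxb13 side lay inside Igf2bp1, 23523 bp from an end, with ranks of 1860 and 1465 in wt and 1356 and 791 in Hox-/- (log2 shift 0.67, no overlap). On the Hoxc4 side Copz1 led, followed by 2 regions inside Pde1b, a phosphodiesterase gene.

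Of the protein-coding genes that lie wholly inside the flanks, 55 of 69 at HoxB and 43 of 65 at HoxC had a peak within 1 kb in all 4 libraries, or 79.7% and 66.2%, beside 69.2% of genes over the genome. No library had a peak at 9 of the 69 genes at HoxB and 17 of the 65 at HoxC, beside 5710 of 21631 over the genome. The 1 gene with a peak in both wt and in neither Hox-/- library was Gm11541, and its ranks were 143144 and 168536. Over the genome 99 of 21631 genes were of this kind. There were 0 genes of the opposite kind in the flanks, beside 39 of 21631 over the genome. Genes whose ranks did not overlap between genotypes numbered 9 stronger in Hox-/- and 7 stronger in wt at HoxB, and 9 and 6 at HoxC, beside 19.9% and 17.3% of genes over the genome.

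Among the related genes that lie beside both clusters, 15 of 16 were open in every library, beside 69.2% of genes over the genome. The partners Copz1 and Copz2 lay far apart in rank in every library. These genes encode alternative zeta subunits of the COPI vesicle coat. Copz1 ranked 74 and 70 in wt and 89 and 60 in Hox-/-, among the strongest 100 peaks of each list. Copz2 ranked 107986 and 156828 in wt and 145924 and 166198 in Hox-/-. Its promoter has 24 CpG and 5 GGGCGG against 19 CpG and 2 GGGCGG in that of Copz1. The strongest peak near Copz2 was not at a fixed place. Its summit lay 1237 bases after the start in wt replicate 1, at −1071 in wt replicate 2, and at −202 and −49 in Hox-/- replicates 1 and 2. Both wt summits lay outside the promoter sequence shown, so the wt ranks cannot be set against its letters. At Copz1 the summit was between −179 and −148 in all libraries.

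Cbx1 and Cbx5 encode the heterochromatin proteins HP1 beta and HP1 alpha, which bind methylated histone H3. Cbx1 ranked 18166 and 16719 in wt and 17742.5 and 23634 in Hox-/-. Cbx5 ranked 4661 and 4129 in wt and 4454 and 3458 in Hox-/-. Both sets of ranks overlapped between genotypes. The Cbx5 peak is shared with Hnrnpa1, an RNA-binding protein gene that starts in the opposite direction, so the 2 promoters are 1 region. Cbx5 is counted among the gene pairs and among the chromatin genes, Hnrnpa1 among the genes of the basic cell, and both in the HoxC total. All these counts rest on the same peak.

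Within that shared interval the order of 2 summits differed between genotypes, a detail picked after its values were seen. Each library listed 4 summits there. The one 374 to 390 bases inside Cbx5 ranked 5729 and 6317 in wt and 4454 and 3458 in Hox-/-. The one 57 to 67 bases before the start of Hnrnpa1 ranked 4661 and 4129 in wt and 5468 and 6334 in Hox-/-. The Hnrnpa1 summit was thus the stronger of the pair in both wt libraries and the Cbx5 summit in both Hox-/- libraries. This was not tested.

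Calcoco2, the partner of Calcoco1 and a receptor of selective autophagy, ranked 38501 and 49496.5 in wt and 33602 and 28762 in Hox-/- (log2 shift 0.49). At Calcoco1 the shift was in the other direction, −0.56, and −0.29 without wt replicate 1. Nfe2l1, a transcription factor of proteasome genes, ranked 430 and 529 in wt and 557 and 1056 in Hox-/-, and its partner Nfe2, known from blood platelets, 45765 and 64753.5 in wt and 65989 and 53833 in Hox-/-. The Nfe2l1 shift of −0.69 was −0.22 without Hox-/- replicate 2 and −1.15 without Hox-/- replicate 1. When peaks were ranked by fold it was −0.10.

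Of the zinc finger genes of the Sp family, Sp1 ranked 462 and 182 in wt and 120 and 367 in Hox-/-, with overlap. Sp2 ranked 660 and 726 in wt and 1309 and 922 in Hox-/-, a shift of −0.67 that was −0.41 without Hox-/- replicate 1 and turned to 0.04 when peaks were ranked by fold. Sp7, the osteoblast factor osterix, had weak peaks, at 92002.5 and 90342 in wt and 105420 and 123782 in Hox-/-. Sp6, known from epithelium of teeth and skin, had no peak in any library.

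The integrin genes Itga3 and Itga5 had peaks of middle to low rank. Itga5, the fibronectin receptor subunit, ranked 90288.5 and 111076 in wt and 58381 and 58845 in Hox-/-, a shift of 0.77 with no overlap. Itga3, a laminin receptor subunit, ranked 47999 and 41652 in wt and 38087.5 and 61805.5 in Hox-/-, with overlap. Atp5g1 and Atp5g2, which encode the same subunit of ATP synthase, ranked 1796 and 1570 in wt and 1447 and 1780 in Hox-/-, and 15554 and 18882 in wt and 21567 and 15580 in Hox-/-. Over the 15 open genes of this list the median shift was −0.12, beside 0.02 over all genes. Without overlap, 2 were stronger in Hox-/- and 4 in wt, beside 19.9% and 17.3% of open genes over the genome.

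**Figure D4:**
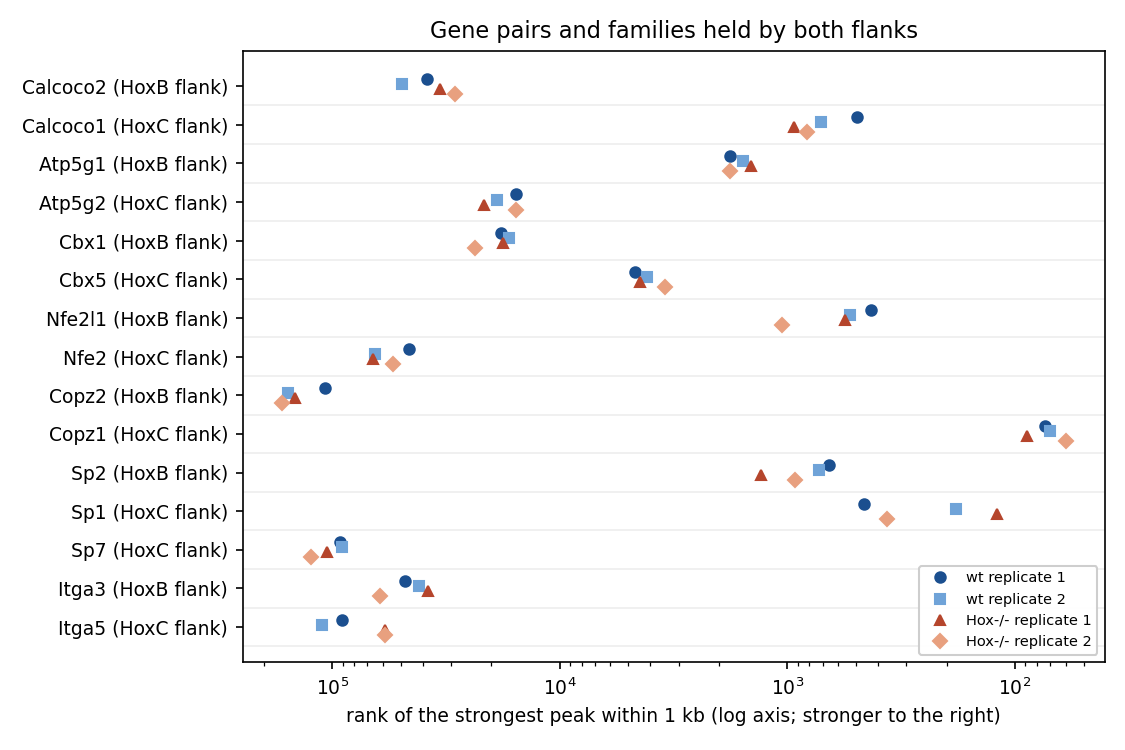
Rank of the strongest peak near the gene (log axis, stronger to the right) in each of the 4 libraries for the gene pairs and families that the HoxB and HoxC flanks share. Peaks were taken within 1 kb of the gene start, or of either end for genes absent from the promoter table. Copz1, at ranks 60 to 89, and Copz2, at 107986 to 166198, lie at opposite ends of the axis in every library; Sp6, with no peak, is not drawn.

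Chromatin and basic cell genes were open in all libraries. All 5 chromatin genes had a peak, with a median shift of 0.05 and 0 of 5 without overlap. Kat7, a histone acetyltransferase, ranked 5006 and 3630 in wt and 3320 and 4112 in Hox-/-, and Mllt6, a fusion partner gene of MLL, 7708 and 7767 in wt and 7268 and 7797 in Hox-/-. Pcgf2, a subunit of Polycomb repressive complex 1, had a weaker peak, at 81228.5 and 109376 in wt and 101828 and 81857 in Hox-/-. All 10 genes of the basic cell had a peak, with a median shift of −0.01, 1 stronger in Hox-/- and 2 stronger in wt without overlap. Over the genome 69.2% of genes had a peak in all libraries. Of these genes, 19.9% were stronger in Hox-/- and 17.3% in wt without overlap. Psmb3, a proteasome subunit, ranked 2018 and 1164 in wt and 1483 and 1312 in Hox-/-. Kpnb1, the nuclear import receptor importin beta, ranked 4813 and 8149 in wt and 4356 and 4522 in Hox-/-. Its shift of 0.50 was 0.12 without wt replicate 2.

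Of 16 developmental and tissue genes, 13 had a peak in every library (81.2%, beside 69.2% over the genome) and Gip, Tac4 and Sgca had none. Gip encodes an incretin of the gut, Tac4 a tachykinin and Sgca a sarcoglycan of muscle. The median shift of the 13 was −0.01. Rarg, a retinoic acid receptor, ranked 25040 and 27888 in wt and 19884 and 22981 in Hox-/-, and Itgb7, an integrin of lymphocytes, 71555 and 61507 in wt and 54190 and 39683 in Hox-/-. Both were stronger in Hox-/- without overlap, and Sp7 was stronger in wt, beside 19.9% and 17.3% of open genes over the genome. The homeobox genes Dlx3 and Dlx4 had weak peaks, between 116969 and 185409 for Dlx3 and between 131688 and 167302 for Dlx4.

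The keratin genes of the Hoxc13 side had the lowest share of open genes among the lists of flank genes. Of 24, 7 had a peak in all libraries (29.2%, beside 69.2% over the genome), 12 in none and 5 in some. Krt8 and Krt18, the pair of simple epithelia, were open. Krt8 ranked 24883 and 27578 in wt and 36955 and 53762 in Hox-/-, a shift of −0.77 with no overlap, which was −0.50 without Hox-/- replicate 2 and −1.04 without Hox-/- replicate 1, and −0.32 with ranks by fold. Krt18 ranked 39548 and 39457 in wt and 38919 and 55556.5 in Hox-/-, with overlap. The highest rank in the group was at Krt88, at 11783 and 11762 in wt and 11530 and 13142 in Hox-/-. The epidermal gene Krt5 and both Krt6 genes, Krt6a and Krt6b, had no peak in any library.

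Outside these lists, the flank genes with the largest shifts were chosen after their values were seen. Atf7, a transcription factor of the CREB family, ranked 1005 and 2202 in wt and 524 and 1051 in Hox-/-, a log2 shift of 1.00 with overlap. Npepps, an aminopeptidase, ranked 19914 and 26346 in wt and 12704 and 12449 in Hox-/-, a shift of 0.87 without overlap. Spryd3 had the largest shift in the other direction, with 1044 and 1128 in wt and 2420 and 1608 in Hox-/- (−0.86).

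Promoters of open genes held more CpG than those of closed genes. Of the flank genes that the promoter table holds, the 67 open in all libraries had a median of 19 CpG in 300 bases, the 21 open in none a median of 3 and the 6 open in 1 to 3 libraries a median of 3.5. Over all 17492 genes of the table the median was 13. GGGCGG on either strand was in 43 of the 67 (64.2%) and in 4 of the 21 (19.0%). One gene stood apart, 4933428G20Rik, with 42 CpG and no peak in any library.

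**Figure D5:**
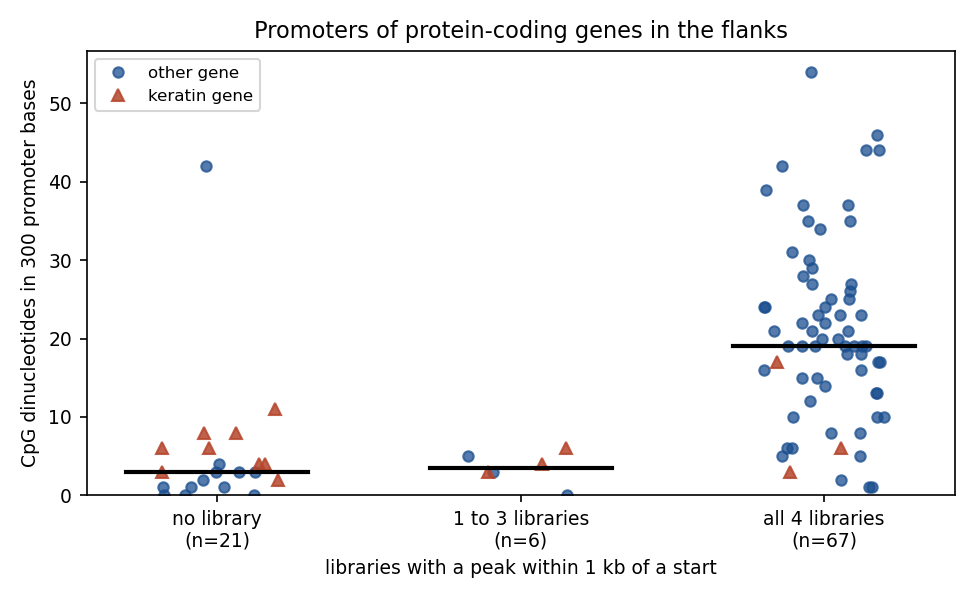
Number of CpG in the 300 bases around the start (vertical axis) of the flank genes that the promoter table holds, grouped by the number of libraries with a peak within 1 kb (horizontal axis). Points are genes, triangles keratin genes and lines medians. Genes open in all 4 libraries had a median of 19 CpG and genes open in none a median of 3, with 1 closed gene at 42.

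The pair Copz2 and Copz1 also carries a pair of miRNAs inside the genes. MiRNAs are short RNAs that bind messenger RNAs through their seed, bases 2 to 8, here in capitals (RefSeq, GRCm38.p6, plus strand of both genes). They are shown because the related hosts lie in the 2 flanks and the seeds are the same, CAGUGCA.
mmu-miR-152-3p (in Copz2, chr11:96850439-96850459): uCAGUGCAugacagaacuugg
mmu-miR-148b-3p (in Copz1, chr15:103285185-103285206): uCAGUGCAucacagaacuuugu
Around miR-152 the best rank within 1 kb was 107986 and 166730 in wt and 118510 and 165937 in Hox-/-. Around miR-148b in Copz1 it was 119744 and 106430 in wt and 118043 and 141290 in Hox-/-. Both were weak and overlapped between genotypes, also in Copz1, whose own promoter is among the strongest. Their mature RNAs were not measured.

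The flanks of HoxA and HoxD, chosen in the same way, held 329 and 313 regions. Of regions called in both wt libraries, 93.9% at HoxA and 93.3% at HoxD were called in a Hox-/- library, against 96.5% at HoxB and 96.8% at HoxC, and the exact 95% binomial intervals of the 4 values overlap. In wt replicate 1 the median rank of the regions called in all libraries was 83472 at HoxA and 69594 at HoxD, against 59394 at HoxB and 64145 at HoxC. In the other libraries HoxB and HoxC also ranked better than HoxA and HoxD.

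The label of the cells was checked against genes of known cell types. All 8 pluripotency genes (Pou5f1, Sox2, Nanog, Klf4, Esrrb, Zfp42, Tfcp2l1 and Tdgf1) had a peak within 1 kb of the start in every library. A peak in every library was also found at 3 of 4 endoderm genes, 4 of 4 mesoderm genes and 4 of 6 fibroblast genes, whose median ranks were weaker. Some of these, such as Gata6, Sox17, Mixl1 and Thy1, were judged at both ends, so their peak need not be at the start. Gata4 and Postn had none in any library, and Prrx1 had one in wt replicate 2 only. Over the genome 69.2% of protein-coding genes had a peak within 1 kb in all libraries, so a call alone says little about cell type.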

How the data were processed

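Each of the 4 libraries came as 1 list of peaks. Per the submitters' processing notes, the tools were cutadapt 4.8, Bowtie2 2.5.0, Picard 2.18.2, bedtools 2.30.0, MACS2 2.2.9.1 and deepTools 3.5.4, with build mm10; their order and settings are not given in the sources used here. The deposited columns hold a fold over background (a ratio), a −log10 p and a −log10 q for each peak, as the authors' peak caller gave them. They were used to rank peaks within a list, to describe each list by its median and, in an alternative, to filter it (Python 3.11.15, pandas 2.3.3, numpy 2.4.6, scipy 1.17.1, matplotlib 3.10.9). Several peaks can share 1 interval. Regions are unions of overlapping peaks. The scripts were tested on simulated data. Tests were exact permutations of the genotype over libraries. Gene names and starts came from RefSeq tables of GRCm38.p6. Genes absent from the promoter table were judged at both ends, and a gene counted as of a flank when it lay wholly inside it.

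Named regions are, in each flank, the nearest called in all libraries, the 3 best ranked, those with a rank shift and the 3 best found in 1 genotype only. Named genes are those of the lists given. The members and lists were chosen with earlier results of these data known. Neurod4 was on a list but lay outside the windows.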

Additional observations from a re-analysis of the deposited data

How the results depend on the processing

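Over the comparisons of the 2 flanks, 168 values were recomputed under other settings. Of these, 100 kept their direction or stayed within their limits, 61 moved and 7 reversed. With the 150000 strongest peaks of each list, the difference in share of peaks was 0.00633 percentage points at HoxB and −0.00333 at HoxC, the HoxB share kept was 98.2%, wt-only regions numbered 7 and regions shifted 2-fold towards Hox-/- numbered 0. With −log10 q of at least 5 the HoxB difference in share was 0.0152 and the count towards Hox-/- was 0. Ranked by fold, regions stronger in wt numbered 2 at HoxB and 4 at HoxC, and those stronger in Hox-/- at HoxC 0. Ranked among the regions called in all libraries, the counts were 0 at HoxB in both directions and 0 towards wt at HoxC. With flanks that end at 0.5 Mb, the HoxB difference in share was 0.000456, the shares kept were 97.9% and 99.3%, wt-only regions numbered 3 and 1, Hox-/- only regions 7 and 1, and 2-fold shifts 0 except 1 towards Hox-/- at HoxC. At 1.5-fold there were 13 and 18 of 433 regions at HoxB, towards Hox-/- and wt, and 7 and 9 of 228 at HoxC. Over the genome the counts were 4944 and 4877 of 122787 regions. The HoxC difference by distance was 0.0237 with the wider near and far classes. Some settings leave fewer regions or peaks, and the causes of the moves were not tested.

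Leaving out 1 library means that a call in that genotype needs 1 library only, which changes the counts by construction. The share kept was then 88.4% to 92.3% at HoxB and 92.9% to 94.4% at HoxC, wt-only regions numbered 39 to 67 and 14 to 19, and Hox-/- only regions 21 to 36 and 7 to 18. Regions shifted 2-fold numbered 1 to 3 towards Hox-/- and 1 to 5 towards wt at HoxB, and 0 to 3 and 1 to 5 at HoxC. The median shift was −0.00663 to 0.0553 at HoxB and 0.0065 to 0.0549 at HoxC, and the difference by distance 0.0661 to 0.114 at HoxB and −0.0286 to 0.0667 at HoxC. The difference by side was −0.122 to −0.0232 at HoxB and −0.105 to −0.00784 at HoxC.

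Whether the replicate numbers pair the libraries is not known. The correlation of the replicate differences of the 2 genotypes was 0.07 in the flanks. That value describes the ranks only and cannot decide whether libraries were prepared in pairs. With the number as a replicate block, the rule for a shifted region also changed. Each numbered pair of libraries had to differ by at least 2-fold, in place of a mean shift of 2-fold without overlap. The counts were then 0 in both directions in both flanks, which cannot separate the pairing from the changed rule. Medians and differences of shares are the same with the block by construction. Read counts are not in the lists, so depth limits every statement on a missing peak.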
